A study of Mus musculus with 3 samples.

Results

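A set of 10 genes that write, maintain or remove 2 repressive marks of chromatin, H3 lysine methylation by Polycomb and cytosine methylation of DNA, were followed across 3 arrays of sorted mouse CD8+ T cells: Ezh1, Ezh2, Suz12, Eed, Dnmt1, Dnmt3a, Dnmt3b, Uhrf1, Tet2 and Hells. Every probe set whose platform annotation names exactly 1 of these symbols was taken, which gave 30 probe sets for 10 genes, of 34945 single-symbol probe sets for 18193 genes in all. This rule uses no measured value. The arrays were Affymetrix mouse 430 2.0 arrays, 1 for each group. NK1.1+ KO cells and NK1.1- KO cells were CD8+ T cells sorted by flow cytometry from Tgfbr2 fl/fl x CD4-Cre mice aged 15 to 17 days, in which both floxed copies of the type II TGF-β receptor gene are removed in T cells. Control cells came from Tgfbr2 fl/WT x CD4-Cre littermates, which carry the Cre transgene too and 1 floxed copy. NK1.1 is a surface receptor of natural killer cells. Cre was driven by Cd4 regulatory sequence, which is active in developing thymocytes and so reaches both the CD4 and the CD8 lineage. The control is labelled NK1.1- in its title, whereas another passage describes total CD8+ cells, so its gate is not settled. The sources used here do not say how many mice gave each RNA.

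Polycomb repressive complex 2 methylates histone H3 at lysine 27 and so marks silent genes. Its catalytic subunit is EZH2 or its paralogue EZH1, held in the complex by SUZ12 and EED. EZH2 is typical of dividing cells and EZH1 of resting ones. DNMT1 copies cytosine methylation onto new DNA strands after replication, guided by UHRF1, which recognises half-methylated sites, and HELLS is an SNF2-type remodeller that opens nucleosomal DNA for methylation. DNMT3A and DNMT3B add methyl groups to unmethylated DNA, and TET2 oxidises methylated cytosine as a step of its removal. In CD8+ T cells EZH2 and DNMT3A are known for silencing genes of alternative fates after activation, and TET2 for limiting expansion.

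The values are GCRMA intensity values on a linear scale, and differences are on the log2 scale. An intensity counted as measured at or above 9.57, the 95th percentile of 142 probe sets of receptor, keratin-associated and lens genes that T cells do not use. Of those 142, 12 reached that level on the NK1.1+ KO array, 6 on that of NK1.1- KO cells and 4 on that of control cells. A lower value was raised to that level before a difference was taken, and a gene was called higher or lower at 2-fold or more. With 1 array per group there is no replicate spread, no test and no p-value, and precision is limited by having 1 array each. Each gene is described by the probe set whose 3 readings had the highest mean, called the brightest, and by its other probe sets, which are repeat measurements of the same RNA and not replicates. Levels of different probe sets are not set against each other, apart from sums of marker intensity, which are compared between arrays.

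Values from the whole arrays bear on each comparison. T cell markers were measured for 8 of 8 genes on every array, with a summed intensity of 7091 for NK1.1+ KO cells, 12684 for NK1.1- KO cells and 16357 for control cells. Of 11 monocyte and macrophage markers, 8 were measured in NK1.1+ KO cells with a sum of 8526, against 5 in NK1.1- KO cells with a sum of 152 and 4 in control cells with a sum of 115. Csf1r, the receptor of a macrophage growth factor, carried 7666 of the sum in NK1.1+ KO cells, while Cd14, C1qa and Itgam were below the level on all 3 arrays. In NK1.1+ KO against control cells, the log2 differences of 3 measured Csf1r probe sets ran from 1.90 to 7.97. Those of 4 measured probe sets of the B cell marker Ighm ran from 0.03 to 2.50. Of 9 B cell markers 6, 5 and 5 were measured in NK1.1+ KO, NK1.1- KO and control cells, with sums of 13377, 1277 and 2296 for those groups, mostly from Ighm on the NK1.1+ KO array, and Cd79a, Pax5 and Blnk were below the level on all 3. Of 7 NK cell markers 6, 5 and 5 were measured in NK1.1+ KO, NK1.1- KO and control cells, with sums of 9678, 6679 and 1711 for those groups, and 5 were higher and 0 lower in either KO group than in control cells, while Ncr1 was below the level on all 3. Of 6 dendritic cell markers 3 were measured on each array, with sums of 1651, 504 and 362 in NK1.1+ KO, NK1.1- KO and control cells, and Itgax, an integrin also found on activated T cells, read 104, 187 and 9.88 for those groups. Naive T cell genes were lower for 9 of 12 in either KO group against control cells. Over all genes, 9.72% were higher and 22.5% lower in NK1.1+ KO cells than in control cells. For NK1.1- KO cells these shares were 7.97% and 5.54%. The ratio of the 3′ to the 5′ Actb control probe sets, a sign of RNA and labelling quality, was 81.9 in NK1.1+ KO cells, 12.3 in NK1.1- KO cells and 6.02 in control cells, and the Gapdh ratio was 10.8, 26.7 and 17.8 in NK1.1+ KO, NK1.1- KO and control cells. Their part in the results below was not tested. Tgfbr2 read 1808, 1271 and 2634 in NK1.1+ KO, NK1.1- KO and control cells, and whether its probes lie in the deleted part is not known here, so it does not check the labels.

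Of the 30 probe sets, 24 were measured on all 3 arrays, 1 on the arrays of NK1.1- KO and control cells, and 5 on none. The unmeasured ones were 3 of 4 for Ezh1, 1 of 6 for Suz12 and 1 of 2 for Eed. All 10 genes therefore had at least 1 probe set measured on every array.

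**Figure D1:**
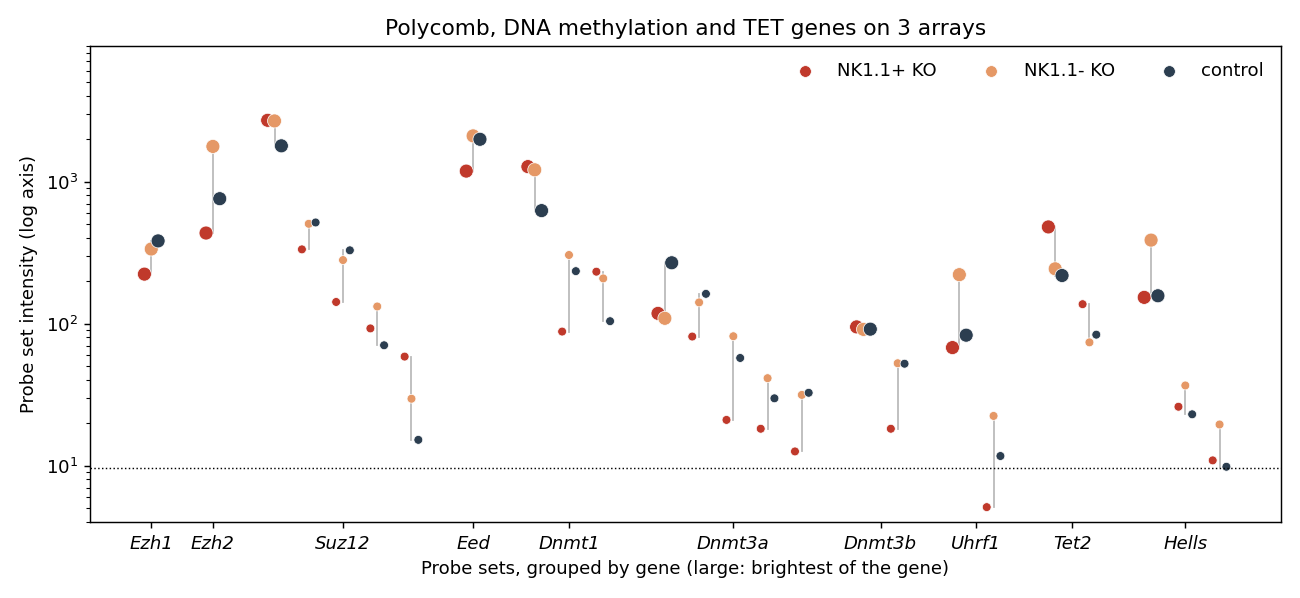
Intensity (log axis) of the 25 measured probe sets of the 10 genes on the arrays of NK1.1+ KO, NK1.1- KO and control cells, grouped by gene, with the brightest probe set of each gene drawn large and the level of 9.57 dotted. Ezh2, Uhrf1 and Hells stand highest on the NK1.1- KO array, Tet2 on the NK1.1+ KO array, and the brightest Dnmt3a probe set on the control array.

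The 2 alternative catalytic subunits of the Polycomb complex differed in how they varied. Ezh2, measured by 1 probe set, read 434 in NK1.1+ KO cells, 1766 in NK1.1- KO cells and 757 in control cells. It was thus 2.33-fold higher in NK1.1- KO cells than in control cells (log2 difference 1.22). Of the 10099 genes measured there, 5.99% were higher by as much or more. In NK1.1+ KO cells it was 1.74-fold lower than in control cells (-0.80), short of the 2-fold call, and 4.07-fold lower than in NK1.1- KO cells (-2.02). In that last comparison 3.97% of 10653 genes lay as far below 0. Ezh1 read 223, 335 and 382 in NK1.1+ KO, NK1.1- KO and control cells. It was 1.14-fold lower in NK1.1- KO cells than in control cells (-0.19) and 1.71-fold lower in NK1.1+ KO cells than in control cells (-0.77), so neither reached 2-fold. The log2 difference of Ezh2 exceeded that of Ezh1 by 1.41 in NK1.1- KO against control cells. Against control cells, the 2 genes differed by -0.03 on that scale in NK1.1+ KO cells. In bulk samples such as these, fewer cells of a type and less RNA per cell cannot be told apart.

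The subunits that hold the complex together stayed within 2-fold at their brightest probe sets. Eed read 1184 in NK1.1+ KO cells, 2095 in NK1.1- KO cells and 1983 in control cells, so that NK1.1- KO and control cells were close (0.08) and NK1.1+ KO cells were 1.68-fold below control cells (-0.74). The brightest probe set of Suz12 read 2697, 2669 and 1783 in NK1.1+ KO, NK1.1- KO and control cells, above control by 0.60 and 0.58 on the log2 scale in the NK1.1+ KO and NK1.1- KO groups. Its other 4 measured probe sets did not share 1 order. The probe set with readings of 142 in NK1.1+ KO cells, 280 in NK1.1- KO cells and 328 in control cells was lower in NK1.1+ KO cells than in control cells (-1.20). Another, with readings of 58.6, 29.6 and 15.2 in NK1.1+ KO, NK1.1- KO and control cells, was higher (1.95). No direction can be given for Suz12 in NK1.1+ KO cells from these arrays.

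Among the genes that maintain DNA methylation, Uhrf1 and Hells varied in the manner of Ezh2. Uhrf1 read 67.8 in NK1.1+ KO cells, 221 in NK1.1- KO cells and 82.9 in control cells at its brightest probe set. It was 2.66-fold higher in NK1.1- KO cells than in control cells (1.41), with 4.66% of genes as far above 0. Against NK1.1- KO cells, it was 3.26-fold lower in NK1.1+ KO cells (-1.70), with 6.88% as far below 0. The second Uhrf1 probe set read 5.11, 22.4 and 11.7 in NK1.1+ KO, NK1.1- KO and control cells. Its value in NK1.1+ KO cells lay below the level, so it was at least 2.34-fold lower there than in NK1.1- KO cells, and it was 1.92-fold higher in NK1.1- KO cells than in control cells. Both Uhrf1 probe sets thus had the NK1.1- KO array highest. The NK1.1+ KO array read lowest at both, but its log2 difference from control cells was small at the first (-0.29). At the second, where it lay below the level, that difference is only a bound (-0.28).

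Hells read 153 in NK1.1+ KO cells, 387 in NK1.1- KO cells and 157 in control cells at its brightest probe set. It was 2.47-fold higher in NK1.1- KO cells than in control cells (1.30) and 2.53-fold lower in NK1.1+ KO cells than in NK1.1- KO cells (-1.34), while NK1.1+ KO and control cells differed by -0.04. The other 2 Hells probe sets were also highest in NK1.1- KO cells, with differences of 0.68 and 0.99 against control. They were slightly above control in NK1.1+ KO cells (0.18 and 0.15), so the sign of that small difference varied among probe sets. With the mean of its 3 probe sets in place of the brightest, both Hells calls were lost: it was 0.99 for NK1.1- KO against control cells and -0.89 for NK1.1+ KO against NK1.1- KO cells.

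Dnmt1, the maintenance methyltransferase, read 1273 in NK1.1+ KO cells, 1209 in NK1.1- KO cells and 624 in control cells at its brightest probe set. A second probe set read 232, 208 and 104 in NK1.1+ KO, NK1.1- KO and control cells, and the third 87.9, 304 and 234 for these groups. All 3 were higher in NK1.1- KO cells than in control cells, by 1.30-fold to 1.99-fold, and none reached 2-fold. The first 2 were higher in NK1.1+ KO cells than in control cells, by 1.03 and 1.15 on the log2 scale, and the third was lower (-1.41). The first 2 carry the suffix by which the array's maker marks probes that can match other transcripts, and they have no accession in the annotation. The mean of the 3 was 0.26, so the call of Dnmt1 as higher in NK1.1+ KO cells (2.04-fold) depended on which probe set was read.

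Of the genes that start methylation, Dnmt3a was lower in both KO groups at its brightest probe set, with readings of 118 in NK1.1+ KO cells, 109 in NK1.1- KO cells and 268 in control cells. This is 2.26-fold lower in NK1.1+ KO (-1.18) and 2.45-fold lower in NK1.1- KO cells (-1.29) than in control cells. Its other 4 probe sets separated these comparisons. All 5 probe sets were lower in NK1.1+ KO cells than in control cells, between -1.45 and -0.71, and 4 of them reached 2-fold, beside 22.5% of all probe sets. The other 4 lay, for NK1.1- KO against control cells, between -0.20 and 0.51 and none reached 2-fold, so that the mean of the 5 was -0.11. For example, 2 of them read 81.1, 141 and 162, and 21.0, 81.5 and 57.3, in NK1.1+ KO, NK1.1- KO and control cells. NK1.1+ KO cells were lowest at both, whereas the order of NK1.1- KO and control cells differed. Between the KO groups the brightest probe set gave 0.11 and the mean of the 5 gave -1.03, so that this direction turned with the summary. With that mean the 3 genes called lower in NK1.1+ KO than NK1.1- KO cells are Ezh2, Uhrf1 and Dnmt3a, with Hells no longer among them. After quantile normalization the brightest set differed by -0.88 in NK1.1+ KO against control cells, short of 2-fold. Dnmt3b read 94.8, 91.1 and 91.4 in NK1.1+ KO, NK1.1- KO and control cells, within 1.04-fold of each other. Its second probe set read 18.2, 52.6 and 52.2 in NK1.1+ KO, NK1.1- KO and control cells, lower in NK1.1+ KO cells than in control cells (-1.52).

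Tet2, the gene of the demethylating enzyme, read 479 in NK1.1+ KO cells, 243 in NK1.1- KO cells and 218 in control cells, and its second probe set read 137, 73.8 and 83.6 in NK1.1+ KO, NK1.1- KO and control cells. NK1.1+ KO cells were highest at both. The brightest probe set was 2.19-fold higher in NK1.1+ KO cells than in control cells (1.13), with 8.31% of 10659 genes as far above 0. The second was 0.71 higher, so that the mean of both, 0.92, was under the call. Against NK1.1- KO cells, Tet2 in NK1.1+ KO cells was 1.97-fold higher (0.98). NK1.1- KO and control cells differed by 0.16. Tet2 is known to be well expressed in monocytes, cells that a CD8 sort should remove. Their summed marker intensity was 8526 on the NK1.1+ KO array and 152 and 115 on those of NK1.1- KO and control cells. On the NK1.1+ KO array, 1 probe set of Csf1r gave 7666 of that sum, with Cd14, C1qa and Itgam below the level. The part of such cells in the Tet2 value was not tested.

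**Figure D2:**
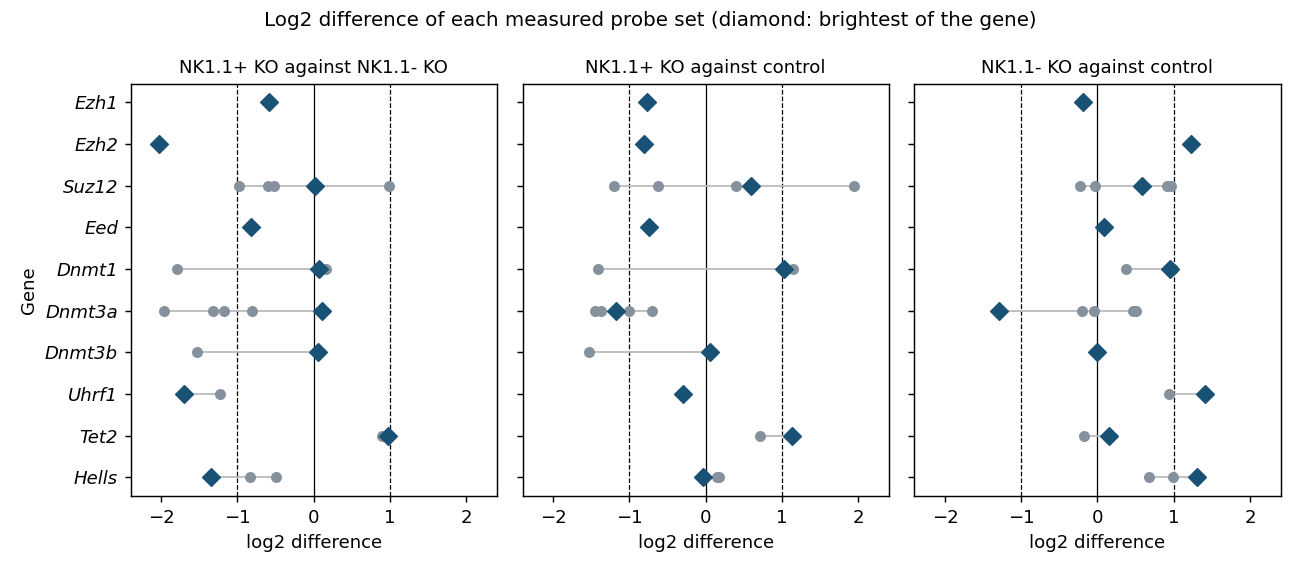
Log2 difference of each measured probe set of the 10 genes in NK1.1+ KO against NK1.1- KO, NK1.1+ KO against control and NK1.1- KO against control cells, with the brightest probe set of a gene as a diamond and 2-fold as dashed lines. The probe sets of Uhrf1, Hells and Tet2 lie within 1 unit of each other in each comparison, whereas those of Suz12, Dnmt1 and Dnmt3b spread over more than 1 unit in NK1.1+ KO against control cells.

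Counted by the brightest probe set, NK1.1- KO cells had 3 of the 10 genes higher than in control cells (Ezh2, Uhrf1 and Hells), where 7.97% of all measured genes were called higher. One gene was lower (Dnmt3a), where 5.54% of all genes were. The median log2 difference of the 10 was 0.37, against 0.01 over all 10099 genes. NK1.1+ KO cells had 2 of 10 higher than in control cells (Dnmt1 and Tet2), beside 9.72% of all genes, and 1 of 10 lower (Dnmt3a), beside 22.5%. The median of the 10 was then -0.16, against -0.17 over all 10659 genes. In NK1.1+ KO against NK1.1- KO cells 0 of 10 were higher, beside 6.43%, and 3 of 10 were lower (Ezh2, Uhrf1 and Hells), beside 20.9%, with medians of -0.29 for the 10 and -0.24 for 10653 genes. These last shares are close to those of all genes, and the 3 comparisons share arrays, so they are not separate evidence.

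Counted by probe set, of 25 measured, NK1.1- KO against control cells had 3 higher (beside 6.9% of all probe sets) and 1 lower (5.89%). NK1.1+ KO against control cells had 4 higher (8.72%) and 7 lower (22.5%), and NK1.1+ KO against NK1.1- KO cells 0 higher (6.3%) and 9 lower (20.5%). The scatter among probe sets of the same gene gives a measure of how far 1 probe set can be read. Its pooled SD was 0.44 for NK1.1- KO against control cells, over 4105 genes with several measured probe sets, 0.85 for NK1.1+ KO against control cells over 3898 genes, and 0.77 between the KO groups over 3941. Over those of the 10 genes with several measured probe sets, the SD was 0.51 (7 genes), 0.92 (6 genes) and 0.79 (6 genes) in these comparisons. This scatter covers differences between probes and not between mice.

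The median of all genes was not at 0 in the NK1.1+ KO comparisons (-0.17 against control and -0.24 against NK1.1- KO cells). Centring on it changed the calls over all genes against NK1.1- KO cells to 1027 higher and 1588 lower, where 685 and 2225 were called as deposited. Against control cells, quantile normalization gave 1297 higher and 1911 lower genes, where 1036 and 2400 were called as deposited. Among the 10 genes, centring added Tet2 as higher in NK1.1+ KO cells than in NK1.1- KO cells (1.21), as did quantile normalization (1.26). The directions of Ezh2, Uhrf1 and Hells in NK1.1+ KO against NK1.1- KO cells were the same after quantile normalization. Centring moves every gene by the same amount, too small to turn these 3, so it is no check of their direction.

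The promoters of Ezh2, Uhrf1, Hells and Dnmt1 are printed because they hold letters of a cell cycle element, and that of the paralogue Ezh1 because it holds none. They are RefSeq windows from 250 bases before to 50 after the annotated start, on assembly GRCm38.p6. All 10 genes had a window, 15 in all, and each sequence reads 5′ to 3′ on the strand of the gene. They were searched on both strands for the core letters of 3 elements known from promoters of cell cycle genes: E2F (TTGGCGC or TTCCCGC or TTCGCGC or TTGCCGC), the cell cycle homology region, CHR (TTTGAA or TTCGAA), and the NF-Y box (CCAAT). Capitals mark E2F letters, as read on either strand. Suz12, whose window also held 1 E2F match, is not printed. Ezh2 (chr6:47594981-47595280, minus strand) held 1 match, Ezh1 (chr11:101226414-101226713, minus strand) none, the 2 windows of Uhrf1 (chr17:56303087-56303386 and chr17:56304063-56304362, plus strand) 1 each, Hells (chr19:38930740-38931039, plus strand) 2, and the third window of Dnmt1 (chr9:20952574-20952873, minus strand) 3. That Dnmt1 window lies wholly downstream of the second (chr9:20952930-20953229), and the second Uhrf1 window lies wholly downstream of the first. Letters in these 2 windows thus fall inside the gene as read from an upstream start. Whether any of them are coding sequence was not examined.
Ezh2: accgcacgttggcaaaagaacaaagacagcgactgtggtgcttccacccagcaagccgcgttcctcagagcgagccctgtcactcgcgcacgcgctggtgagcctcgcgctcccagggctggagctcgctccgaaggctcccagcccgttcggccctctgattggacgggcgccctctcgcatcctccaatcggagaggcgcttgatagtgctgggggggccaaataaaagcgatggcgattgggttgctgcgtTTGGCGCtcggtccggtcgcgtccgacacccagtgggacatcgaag
Ezh1: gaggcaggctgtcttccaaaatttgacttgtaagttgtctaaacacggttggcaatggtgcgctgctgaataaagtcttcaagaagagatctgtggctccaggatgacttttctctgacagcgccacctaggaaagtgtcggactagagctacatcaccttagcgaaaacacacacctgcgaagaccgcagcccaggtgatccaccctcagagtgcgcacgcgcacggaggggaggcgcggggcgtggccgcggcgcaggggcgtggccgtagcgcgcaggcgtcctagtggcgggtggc
Uhrf1 window 1: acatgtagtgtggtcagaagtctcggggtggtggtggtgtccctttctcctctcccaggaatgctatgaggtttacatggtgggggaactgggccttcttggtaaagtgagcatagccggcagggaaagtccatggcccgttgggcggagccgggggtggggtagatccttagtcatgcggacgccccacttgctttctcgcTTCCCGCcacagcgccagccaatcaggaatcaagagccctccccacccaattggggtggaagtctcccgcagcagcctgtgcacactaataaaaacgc
Uhrf1 window 2: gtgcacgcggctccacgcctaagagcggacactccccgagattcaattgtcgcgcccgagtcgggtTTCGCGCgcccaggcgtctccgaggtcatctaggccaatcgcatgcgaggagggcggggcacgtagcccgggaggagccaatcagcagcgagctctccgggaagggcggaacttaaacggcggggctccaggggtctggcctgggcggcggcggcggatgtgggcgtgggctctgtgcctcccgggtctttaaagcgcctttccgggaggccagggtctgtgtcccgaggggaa
Hells: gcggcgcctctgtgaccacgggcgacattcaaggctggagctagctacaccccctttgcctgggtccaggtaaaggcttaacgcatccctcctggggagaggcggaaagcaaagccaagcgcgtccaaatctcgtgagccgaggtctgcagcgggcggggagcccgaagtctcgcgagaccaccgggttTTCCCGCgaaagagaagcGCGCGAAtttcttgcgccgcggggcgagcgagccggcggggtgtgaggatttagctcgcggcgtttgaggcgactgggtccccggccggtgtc
Dnmt1 window 3: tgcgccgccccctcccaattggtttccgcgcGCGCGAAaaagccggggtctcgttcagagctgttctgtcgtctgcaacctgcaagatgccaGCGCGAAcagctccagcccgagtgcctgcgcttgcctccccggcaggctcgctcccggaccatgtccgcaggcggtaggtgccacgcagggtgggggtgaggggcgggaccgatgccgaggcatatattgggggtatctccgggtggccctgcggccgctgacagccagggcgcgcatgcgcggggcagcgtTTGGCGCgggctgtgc

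E2F letters were thus present for the 3 genes called higher in NK1.1- KO cells, and also for Suz12 and in the third window of Dnmt1. They were absent from the other windows of Dnmt1 and from those of Ezh1, Eed, Dnmt3a, Dnmt3b and Tet2. They were held by 9.57% of all 32851 windows of the RefSeq table. Among the 3837 windows with at least 30 CpG sites the share was 25.4%. Both shares are per window, whereas a gene was counted here if any of its windows held the letters. Uhrf1 has 2 windows, and Dnmt1 and Dnmt3a have 3 each. Of the windows with E2F letters, those of Ezh2 (31 CpG sites), Suz12 (41) and Hells (34) are of that kind. The second window of Uhrf1 (33) and the third of Dnmt1 (33) are too. So are windows without E2F letters, namely those of Tet2 (57), Dnmt3b (30) and Dnmt3a (46 and 47). The NF-Y box was found in 37.4% of all windows. It occurred in Ezh2 (3 times), both windows of Uhrf1 and 2 of the 3 windows of Dnmt1, as well as in Suz12 and Eed, and it was not found in Hells. CHR letters, present in 19.2% of all windows, were found in Suz12, Eed, Dnmt3b and 1 window of Dnmt1 and in none of Ezh2, Uhrf1 and Hells. A match is a run of letters and not a bound site, and its absence says nothing of the factor.

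**Figure D3:**
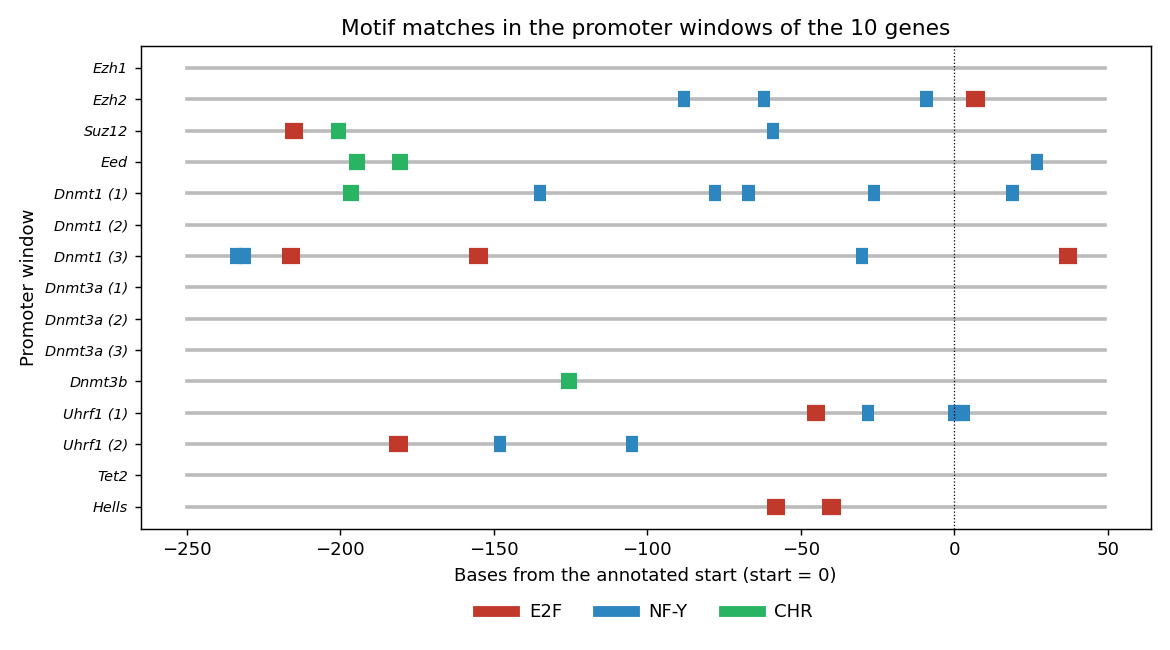
Positions of E2F, NF-Y and CHR letters in the 15 promoter windows of the 10 genes, in bases from the annotated start (drawn at 0). E2F letters appear in the windows of Ezh2, Suz12, Uhrf1 and Hells and in the third of Dnmt1, and no motif appears in those of Ezh1, Dnmt3a and Tet2.

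The genes nearest in pattern to the 6 called genes were found among 8936 genes measured on all 3 arrays, as the smallest distance between the 3 log2 values after taking out their mean. With only 3 arrays many genes lie close to any pattern. Ezh2 lay nearest to Snrnp25, which encodes a protein of the minor spliceosome (distance 0.04), Celsr1, a planar polarity cadherin (0.06), and Gpsm2, which orients the mitotic spindle (0.08). Uhrf1 lay nearest to Tbc1d31 (0.04), Arhgap19 (0.05) and Rnpep (0.05). Hells lay nearest to Slbp, which encodes the protein that binds the stem loop of replication-dependent histone mRNAs (0.01), Tpi1, an enzyme of glycolysis (0.02), and Siva1 (0.03). Slbp read 899 in NK1.1+ KO cells, 2254 in NK1.1- KO cells and 924 in control cells. Dnmt1 lay nearest to Umad1 (0.02), Gpr137b-ps (0.02) and Prex1 (0.02), and Dnmt3a to Etnk1 (0.04), Hexa (0.05) and Trav9d-3 (0.06). Tet2 lay nearest to Rnpc3, also of the minor spliceosome (0.0010), Vmn2r29 (0.04) and Ifit1bl2 (0.05). Vmn2r29 belongs to the receptor families that set the level and read 22, 11.6 and 10.2 in NK1.1+ KO, NK1.1- KO and control cells.

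Genes of the cell cycle varied with Ezh2, Uhrf1 and Hells in NK1.1- KO against control cells and between the KO groups. The part of the cell cycle in these results was not tested. Of 31 measured DNA replication genes, 20 were higher and 0 lower in NK1.1- KO cells than in control cells (median log2 difference 1.21). Of 22 mitosis genes 21 were higher and 0 lower (median 2.35). The shares over all genes there were 7.97% higher and 5.54% lower. In NK1.1+ KO against NK1.1- KO cells 24 of 32 replication genes and 21 of 22 mitosis genes were lower (medians -2.08 and -3.09). Higher genes numbered 0 in either list, and of all genes 20.9% were lower and 6.43% higher. The differences of Ezh2 (1.22), Uhrf1 (1.41) and Hells (1.30) in NK1.1- KO cells lay close to the replication median. In NK1.1+ KO against control cells 13 of 32 replication genes and 11 of 22 mitosis genes were lower (medians -0.78 and -0.91). Higher there were 1 replication gene and 0 mitosis genes. Of all genes 22.5% were lower and 9.72% higher, with a median of -0.17. Ezh2 (-0.80), Uhrf1 (-0.29) and Hells (-0.04) were within 2-fold. Uhrf1 and Hells thus lay nearer to the median of all genes than to those of the 2 lists. Tk1, which makes thymidine phosphate for DNA synthesis, read 10.4 in NK1.1+ KO cells, 282 in NK1.1- KO cells and 40.3 in control cells. Of 15 measured E2F and RB genes, 3 were higher and 0 lower in NK1.1- KO cells than in control cells. These were E2f7 and E2f8, repressive E2F factors, with readings of 11.3, 122 and 11.1 and of 106, 679 and 88.1 in NK1.1+ KO, NK1.1- KO and control cells, and E2f2 with 199, 588 and 261 for these groups.

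The partners of the Polycomb core were counted in the same way. Of 8 other measured PRC2 subunits and cofactors, 0 were higher and 1 lower in NK1.1- KO cells than in control cells. The shares over all genes were 7.97% and 5.54%, and the median of the 8 was 0.02. The lower one was Phf1, an accessory subunit that helps recruit the complex, with 38.6 in NK1.1+ KO cells, 25.2 in NK1.1- KO cells and 58.8 in control cells. Jarid2, a cofactor that targets PRC2 to DNA, was 2.38-fold higher in NK1.1+ KO cells than in control cells at its brightest probe set (1879 in NK1.1+ KO cells against 789 in control cells), but another of its 3 probe sets was lower (-1.35), so no direction is given. Of 19 PRC1 genes, which encode the complex that ubiquitinates histone H2A, 1 was higher and 3 lower in NK1.1- KO cells than in control cells, and 3 higher and 4 lower in NK1.1+ KO cells than in control cells. Of all genes, 13.5% and 32.2% were called either way in these comparisons. Cbx7, a subunit that reads the H3 lysine mark, had 24, 31.8 and 73.8 in NK1.1+ KO, NK1.1- KO and control cells, lower in the NK1.1+ KO and NK1.1- KO groups (-1.62 and -1.21). Ring1, a ubiquitin ligase subunit, had 11.3, 11.4 and 24 in NK1.1+ KO, NK1.1- KO and control cells, and Yaf2, a RING1-binding subunit, was higher in both KO groups with 1671, 1524 and 741 in NK1.1+ KO, NK1.1- KO and control cells.

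Of 10 measured demethylases and other enzymes that oppose Polycomb, 4 were higher and 0 lower in NK1.1+ KO cells than in NK1.1- KO cells, beside 6.43% and 20.9% of all genes, with a median of 0.83 against -0.24 for all genes. The 4 were Kdm6b, a demethylase of the H3 lysine mark, Crebbp, an acetyltransferase for the same lysine, Kmt2d, an enhancer methyltransferase, and Asxl2, a partner of an H2A deubiquitinase. Of the 10, 7 lay above 0 and 3 below. Among the 3 was Kdm6a, also a demethylase of that mark, at -0.46, with 4 probe sets from -0.46 to 0.85. Kdm6b read 1956 in NK1.1+ KO cells, 405 in NK1.1- KO cells and 971 in control cells. Its 3 probe sets were all lower in NK1.1- KO cells than in control cells, between -1.33 and -1.08, opposite in sign to Ezh2 (1.22). The brightest of them carries the suffix described for Dnmt1. Between the KO groups the 3 ran from -0.37 to 2.27, so that call rests on the brightest. The same holds for Asxl2, whose other probe set gave -0.29 against 1.07 at the brightest, and the probe sets of Crebbp ran from 0.07 to 1.25. Crebbp read 3826 in NK1.1+ KO cells, 1608 in NK1.1- KO cells and 2051 in control cells, and Kmt2d 4234, 2046 and 2151 for these groups.

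On the side of DNA methylation, 12 other TET and demethylation genes were measured in NK1.1- KO against control cells. Of these 1 was higher and 2 lower, beside 7.97% and 5.54% of all genes. Cxxc5, a CXXC protein related to the DNA-binding part of TET enzymes, read 30 in NK1.1+ KO cells, 29.4 in NK1.1- KO cells and 191 in control cells. It was lower in NK1.1+ KO and NK1.1- KO cells than in control cells (-2.67 and -2.70), as was its second probe set (-1.29 and -1.17). Tet1, the paralogue of Tet2, read 52.3, 27.2 and 67.1 in NK1.1+ KO, NK1.1- KO and control cells. Against control cells, its 3 probe sets ran from -2.12 to 0.05 in NK1.1- KO cells and from -3.65 to 0.08 in NK1.1+ KO cells. Gadd45b, which is linked to demethylation by repair, read 87.4, 99.7 and 42.2 in NK1.1+ KO, NK1.1- KO and control cells, and both of its probe sets were higher in NK1.1- KO cells than in control cells (1.24 and 1.17). Of 14 measured in NK1.1+ KO against control cells, 2 were higher and 5 lower, beside 9.72% and 22.5% of all genes. Among the lower ones was Apex1, a repair endonuclease, with 485 in NK1.1+ KO cells and 1796 in control cells at its brightest probe set and all 3 probe sets lower.

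Cofactors of the maintenance machinery are set beside an array-wide lean to lower values. In NK1.1+ KO cells 22.5% of all genes were lower and 9.72% higher than in control cells. For NK1.1- KO cells these shares were 5.54% and 7.97%. Of 12 measured methyl-CpG readers and methylation cofactors, 1 was higher and 5 lower in NK1.1+ KO cells than in control cells (median -0.49), and 0 were higher and 1 lower in NK1.1- KO cells than in control cells (median -0.08). Ahcy, which clears the product that inhibits methyltransferases, read 134 in NK1.1+ KO cells, 820 in NK1.1- KO cells and 531 in control cells. Uhrf2, the paralogue of Uhrf1, read 178, 278 and 334 in NK1.1+ KO, NK1.1- KO and control cells and was within 2-fold at both of its probe sets, which differed in sign against control (-0.91 and 0.90 in NK1.1+ KO cells). Of 11 SNF2 remodellers and HELLS partners, 0 were higher and 6 lower in NK1.1+ KO cells than in control cells (median -1.10), and 0 higher and 1 lower in NK1.1- KO cells than in control cells (median -0.20). Several of the 6 rest on the brightest probe set, since the other probe set of the remodellers Chd4 (-0.61), Smarca4 (-0.94) and Smarcad1 (0.07) was within 2-fold. Cdca7, which recruits HELLS to chromatin, read 18.5 in NK1.1+ KO cells, 155 in NK1.1- KO cells and 121 in control cells, but its second probe set was 0.42 higher in NK1.1+ KO cells than in control cells. Cdca7l, its paralogue, read 135, 529 and 408 in NK1.1+ KO, NK1.1- KO and control cells, so that it was 1.30-fold higher in NK1.1- KO cells than in control cells, where Hells was 2.47-fold higher.

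**Figure D4:**
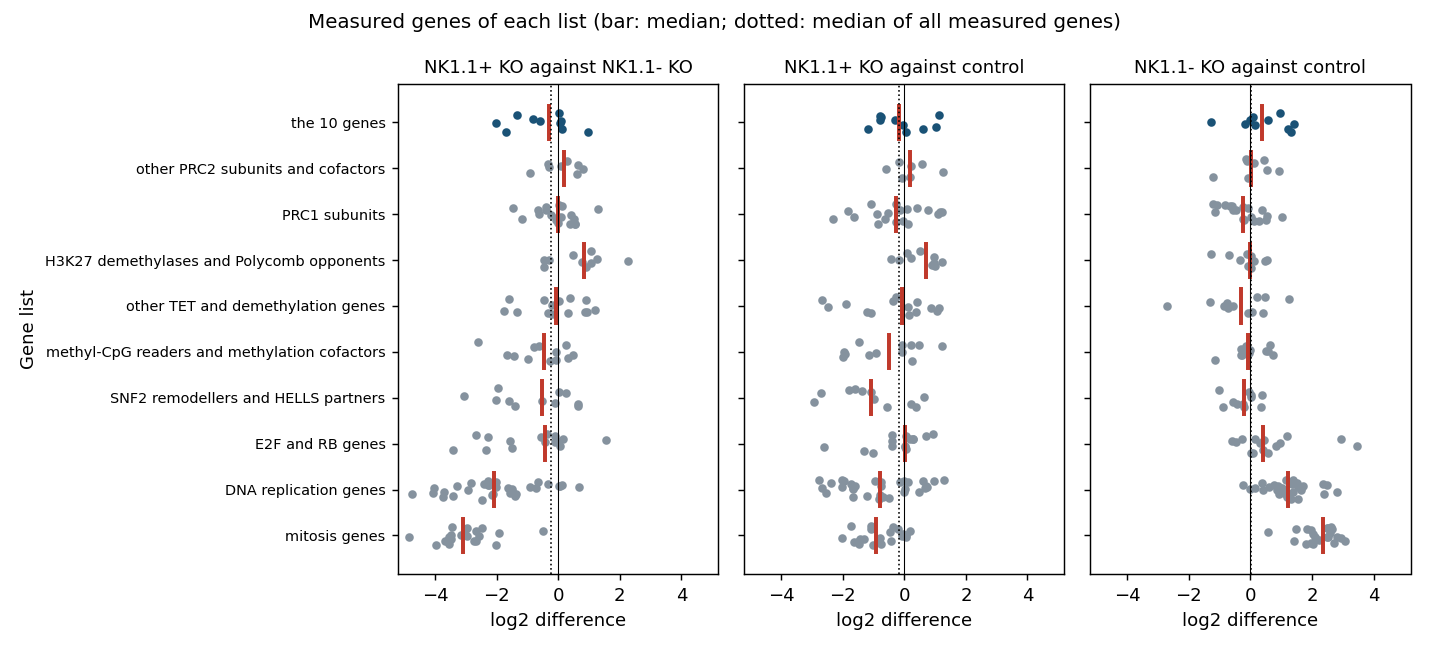
Log2 differences of the measured genes of each list in NK1.1+ KO against NK1.1- KO, NK1.1+ KO against control and NK1.1- KO against control cells, with the list median as a bar and the median of all measured genes dotted. DNA replication and mitosis genes have medians of 1.21 and 2.35 in NK1.1- KO against control cells, while the other chromatin lists there have medians between -0.32 and 0.02.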

How the data were processed

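Total RNA of 3 groups of CD8+ T cells was hybridised to 1 Affymetrix mouse 430 2.0 array each, and groups follow the sample titles. The deposited table gives, for 45101 probe sets (64 of them array controls), an intensity on a linear scale. Per the submitters' processing notes the authors used GCRMA 1.1.3, a method that models background from probe sequence before normalization and summary; the sources used here do not state its settings.

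Gene symbols came from GEO's platform annotation, and only probe sets with exactly 1 symbol were used. The authors' intensity values were used on the log2 scale. Values under the level of 9.57 were raised to it, so some differences are lower bounds ("at least"). Cryab and Crybg probe sets were left out of the families that set the level after their values were seen, because they are not restricted to the lens, and the level with them, 11.5, is among the alternatives.

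The genes and lists were chosen with earlier results of these data known. The rule for named genes took all 10 genes, per list and comparison up to 4 genes with the largest differences, and for each called gene the 3 nearest in pattern. It also took Tgfbr2 and cell type markers. Uhrf2 lies outside that rule and was named as a paralogue after its values were seen. Python 3.11.15, numpy 2.4.6 and pandas 2.3.3 were used. The calls were run on simulated data, with changes in bright genes only and less noise than the scatter among probe sets. That run checked the code and not the reliability of the calls reported here. Alternatives changed the level, an offset of 32, the summary of probe sets, the normalization and the fold. Protein sequences were not used here.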

Additional observations from a re-analysis of the deposited data

Results flagged for a closer look

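At their brightest probe sets, Ezh2, Uhrf1 and Hells differed from the control array with opposite signs in the KO groups. The log2 difference against control cells was -0.80 in NK1.1+ KO and 1.22 in NK1.1- KO cells for Ezh2, -0.29 and 1.41 for Uhrf1, and -0.04 (-0.038) and 1.30 for Hells. Both differences of a gene use the same control array, and with 1 array per group the difference between the KO groups was not tested. The sign of Hells in NK1.1+ KO cells is not shared by its other 2 probe sets (0.18 and 0.15), and the mean of the 3 is 0.099. The values of Uhrf1 and Hells in NK1.1+ KO cells are within 2-fold of control cells.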

How the results depend on the processing

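With 1 array per group no replicate could be left out. No paired analysis was possible because each group has 1 array. Of the values of the 10 genes under the alternatives, 251 kept their call or lack of one. Another 10 were called only under the alternative, the 1.5-fold setting included. A further 8 lost their call, and 2 turned with a call in 1 of the settings. Changes of sign without a call are among the 251. Dnmt3b in NK1.1+ KO against control cells, for example, gave 0.05, and -0.74 with the mean of its probe sets. The number of genes called was within 1.5 times in 44 of 56 alternatives and moved in 12. In NK1.1- KO against control cells, the mean of all probe sets gave 0 lower. In NK1.1+ KO against control cells, an offset of 32 gave 1 higher and 0 lower, the mean of all probe sets 0 higher, probe sets without a suffix 1 higher and 2 lower, quantile normalization 0 lower, and a 1.5-fold call 4 lower. In NK1.1+ KO against NK1.1- KO cells, quantile normalization and centring each gave 1 higher, and a 1.5-fold call 1 higher and 5 lower.

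Directions turned as follows where either setting gave a call, and the cause was not tested. With the mean of all probe sets, Kdm6b (-0.54) and Gadd45b (-0.0039) turned in NK1.1+ KO against control cells, and Dnmt3a (-1.03) and Slbp (0.16) in NK1.1+ KO against NK1.1- KO cells. With only probe sets without a suffix, Jarid2 turned in NK1.1- KO against control cells (-1.05), Kdm6b (-1.45), Gadd45b (-1.11), Suz12 (-1.20) and Jarid2 (-1.35) in NK1.1+ KO against control cells, and Kdm6b (-0.37), Tet1 (-1.53) and Idh2 (0.43) in NK1.1+ KO against NK1.1- KO cells. Counts over all genes differed by more than 1.5 times with the level set to 54.0 (the 75th percentile of the table), an offset, the mean of all probe sets or a 1.5-fold call. For NK1.1- KO against control cells, 805 higher and 559 lower genes became 493 and 310 with that level, 473 and 237 with the offset, 536 and 356 with the mean, and 1612 and 1484 at 1.5-fold. For NK1.1+ KO against control cells, 1036 and 2400 became 559 and 1475, 582 and 1470, 555 and 1818, and 1803 and 3675. For NK1.1+ KO against NK1.1- KO cells, 685 and 2225 became 323 and 1287, 360 and 1188, 329 and 1570, and 1353 and 3749. Probe sets near the level, such as the second of Uhrf1, give only bounds.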

Other observations

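Genes that the 2 marks are known to keep silent were mostly below the level. Of 16 germline genes known to be silenced by DNA methylation, 3 were measured in each comparison and 0 were called higher or lower at 2-fold. Of 24 developmental Polycomb targets, 1 was measured in NK1.1- KO against control cells, namely Cdkn2b, a cell cycle inhibitor (log2 difference 0.28). For NK1.1+ KO against control cells 4 were measured and 2 were called higher, beside 9.72% of all genes. Pax3, a transcription factor of muscle and neural crest precursors, read 30.1 in NK1.1+ KO cells, 7.69 in NK1.1- KO cells and 5.89 in control cells, which is at least 3.14-fold higher in NK1.1+ KO cells. Hoxa9, a homeobox factor of early blood cells, read 19.3, 9.02 and 6.15 in NK1.1+ KO, NK1.1- KO and control cells, at least 2.02-fold higher, and less than 2-fold with the level at 11.5 (0.75 on the log2 scale). With the mean of all their probe sets Pax3 was 0.18 and Hoxa9 0.28 higher. On the NK1.1+ KO array 12 of the 142 probe sets that set the level also reached it, against 4 on the control array, and the part of background in these values was not tested.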
